A study of Mus musculus with 8 samples.

Results

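Immediate early genes were described as a set of 10 genes chosen by name for their known induction by activity and stress: Fos, Fosb, Fosl2, Jun, Junb, Jund, Egr1, Arc, Ier2 and Atf3. All 10 were among the 23278 genes of the RNA-seq tables, and 7 of them were among the 13948 genes with at least 1 RPKM in at least 2 libraries. RPKM is a read count scaled to the length of the gene model and to the depth of the library, so levels can be compared between genes per length. Fosb, Junb and Atf3 lay below that filter and are given by level without a test. The study compared wild-type (WT) mice with a model of spinal muscular atrophy (SMA), in which too little survival motor neuron protein is made and motor neurons degenerate. All mice were of the FVB/N strain and were taken at postnatal day 1, and the tissue was the lumbar spinal cord. The SMA mice had the genotype SMN2+/+;SMNΔ7+/+;Smn-/-, that is, no mouse Smn, with human SMN2 and an SMN transgene lacking an exon. Ventral horn motor neurons and white matter glia were cut from frozen, hematoxylin-stained sections by laser, which gave 4 groups of 2 libraries: WT motor neurons, SMA motor neurons, WT white matter and SMA white matter. The labels name no animals. Sex transcripts, given below, showed that the 2 libraries of each group came from animals of different sex. The p-values thus cover a spread between libraries in which animal, sex and technical differences are mixed. Captures hold any cell in the cut area. In such bulk captures, fewer cells of a type and less RNA per cell cannot be told apart.

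Immediate early genes are transcribed within minutes of a stimulus, without new protein synthesis, when calcium entry, growth factors or stress activate kinases that act on factors already bound at their promoters, among them SRF with its ELK partners and CREB. FOS and JUN proteins pair through leucine zippers to form the AP-1 transcription factor, EGR1 is a zinc finger factor, and Arc acts at synapses. In motor neurons, Jun and Atf3 are known as genes induced by axon injury.

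Promoter sequences show how the AP-1 genes that the results turn on differ upstream of their start sites. They were taken from RefSeq on build GRCm38.p6, where 7 of the 10 members had an entry (Fos, Fosb, Fosl2, Jun, Junb, Jund and Atf3). The deposited values were made on the older build mm9. The 250 bases before the annotated start are shown for Fos, whose level differed most between the genotypes in motor neurons, for Fosb, its close relative near 0, and for Jun, the most abundant member. The Fos window lies at chr12:85473640-85473889 on the plus strand, that of Fosb at chr7:19310046-19310295 on the minus strand and that of Jun at chr4:95052223-95052472 on the minus strand. Capitals mark TGACG, the core of the cyclic AMP response element that CREB and ATF proteins bind, and TATAAA.
Fos: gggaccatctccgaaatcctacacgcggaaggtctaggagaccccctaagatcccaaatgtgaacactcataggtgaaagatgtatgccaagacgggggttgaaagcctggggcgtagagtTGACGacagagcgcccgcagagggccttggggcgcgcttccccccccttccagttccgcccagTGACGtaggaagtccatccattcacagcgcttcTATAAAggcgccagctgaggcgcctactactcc
Fosb: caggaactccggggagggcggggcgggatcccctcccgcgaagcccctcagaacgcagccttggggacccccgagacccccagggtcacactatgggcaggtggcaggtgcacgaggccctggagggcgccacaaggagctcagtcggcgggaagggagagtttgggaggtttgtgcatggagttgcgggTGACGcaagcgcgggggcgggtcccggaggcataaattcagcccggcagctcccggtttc
Jun: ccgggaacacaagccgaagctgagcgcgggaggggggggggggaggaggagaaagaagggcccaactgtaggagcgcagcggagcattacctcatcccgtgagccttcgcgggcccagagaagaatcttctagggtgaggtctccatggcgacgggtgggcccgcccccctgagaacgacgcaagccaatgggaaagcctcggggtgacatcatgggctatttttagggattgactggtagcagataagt
TGACG was searched on both strands and TATAAA only on the strand that reads in the direction of the gene, as printed above. The Fos window held TGACG 2 times, with first bases at positions -129 and -66 from the start, and TATAAA 1 time, at -33. Single TGACG matches lay in the windows of Fosb (at -60), Junb (at -106) and, on the opposite strand, Atf3 (at -7). The windows of Fosl2, Jun and Jund held neither TGACG nor TATAAA in these letters. TGACG was present in 17.9% and TATAAA in 7.55% of 32536 windows of the same length. The AP-1 site TGANTCA (6.73% of windows) and the CArG box that SRF binds (1.48%) had no match in any of the 7 members' windows. Sites farther upstream than 250 bases were not searched, so these genes are not shown to lack them. Sites with similar letters were not searched either, such as tgacatca in the Jun window. A match is a description of the letters and was not tied to the levels below.

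The scaling of the deposited values corresponded to 77.5 M to 102.8 M reads per library (M, mega). The targeted gene Smn1 was at 2.93 to 14.3 RPKM in the 4 WT libraries and listed at 0 in the 4 SMA libraries. Defining markers fitted the labels: the summed level of 6 motor neuron markers (Chat, Isl1, Mnx1, Slc18a3, Slc5a7, Prph) was 408 to 493 RPKM in motor neuron libraries against 4.75 to 14.6 RPKM in white matter, and that of 6 myelinating oligodendrocyte markers was 39.5 to 111 and 1699 to 4452 RPKM. The female transcript Xist was high in replicate 1 and near 0 in replicate 2 of every group. The male transcript Ddx3y was at 0 in replicate 1 and at 0.628 to 6.37 RPKM in replicate 2. Each group thus held 1 female and 1 male library, and the replicate number stood for sex in all 4 groups. Ribosomal RNA (Rn45s) made up 19.4 to 33.4% of summed RPKM, and the 2 SMA motor neuron libraries, at 22.4 and 33.4%, differed most in it.

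Fos encodes the founding partner of JUN proteins in AP-1. In WT motor neurons it was at 1.78 and 2.06 RPKM, and in SMA motor neurons at 13.3 and 6.49 RPKM. In white matter it was at 1.27 and 1.67 RPKM in WT and at 2.52 and 1.77 RPKM in SMA. The SMA motor neurons thus held the 2 highest Fos levels of the 8 libraries, and the other 3 groups all lay between 1.27 and 2.52 RPKM. Behind these values stood 340 and 334 reads in WT and 2279 and 1119 reads in SMA motor neurons. The error of counting reads alone was small beside the 2.05-fold gap between the 2 SMA replicates. The captured RNA was amplified, so read numbers do not cover the error of capture and amplification. In order of group means, SMA motor neurons stood clear of SMA white matter, SMA white matter overlapped WT motor neurons, and WT motor neurons lay just above WT white matter.

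Fosb, whose product also joins AP-1 and whose stable splice form builds up with repeated activity, was nearly absent. It was at 0.0582 and 0.0137 RPKM in WT motor neurons and at 0.0488 and 0.0274 RPKM in WT white matter. It was listed at 0 in both SMA motor neuron libraries and at 0.00547 and 0 RPKM in SMA white matter. The highest of these levels rested on 10 reads, the smallest whole number that the values allow, and several lay under the level of 3 reads, so no fold is given.

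Fosl2, which encodes the FOS-related protein FRA2, followed the regions. It was at 1.01 and 0.878 RPKM in WT and 0.994 and 0.615 RPKM in SMA motor neurons. In white matter it was at 2.11 and 1.90 RPKM in WT and at 2.64 and 3.63 RPKM in SMA. Every white matter library lay above every motor neuron library. The makeup of the FOS family without Fosl1, a FOS gene outside the set, was computed in each library. Fosl1 was at 1.62 and 1.73 RPKM in WT and at 3.91 and 1.047 RPKM in SMA motor neurons. In white matter it was at 1.21 and 0.934 RPKM in WT and at 3.05 and 0.684 RPKM in SMA. It lay above Fosl2 in every motor neuron library and in SMA white matter replicate 1. With Fosl1 included, the shares of Fos would be lower than those that follow. Fos made up 93.1 and 91.3% of the summed RPKM of Fos, Fosb and Fosl2 in SMA motor neurons, 62.6 and 69.8% in WT motor neurons, 37.0 and 46.4% in WT white matter and 48.8 and 32.7% in SMA white matter.

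Jun, which encodes the DNA-binding AP-1 subunit phosphorylated by JNK kinases, had the highest group mean of the members in every group, although it overlapped Egr1 in both white matter groups. It was at 34.0 and 44.0 RPKM in WT motor neurons and at 30.8 and 28.5 RPKM in SMA motor neurons. In white matter it was at 11.0 and 8.09 RPKM in WT and at 12.2 and 14.9 RPKM in SMA. All 4 groups were separate, in the order WT motor neurons, SMA motor neurons, SMA white matter and WT white matter. The lowest motor neuron library was above the highest white matter library, and replicates differed by at most 1.36-fold.

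Jund, a JUN gene expressed broadly without stimulation, had the second highest mean in motor neurons. It was at 19.7 and 16.5 RPKM in WT and at 14.0 and 21.8 RPKM in SMA motor neurons, against 8.74 and 4.002 RPKM in WT and 10.8 and 5.68 RPKM in SMA white matter. The regions did not overlap and the genotypes did. Junb, which in many cells opposes Jun, was low: 0.0955 and 0.575 RPKM in WT motor neurons, 0.319 and 0.416 in SMA motor neurons, 0.976 and 0.731 in WT white matter and 0.393 and 0.782 in SMA white matter. Its 2 WT motor neuron replicates differed 6.02-fold, and its genotypes overlapped in both regions on the deposited scale.

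**Figure D1:**
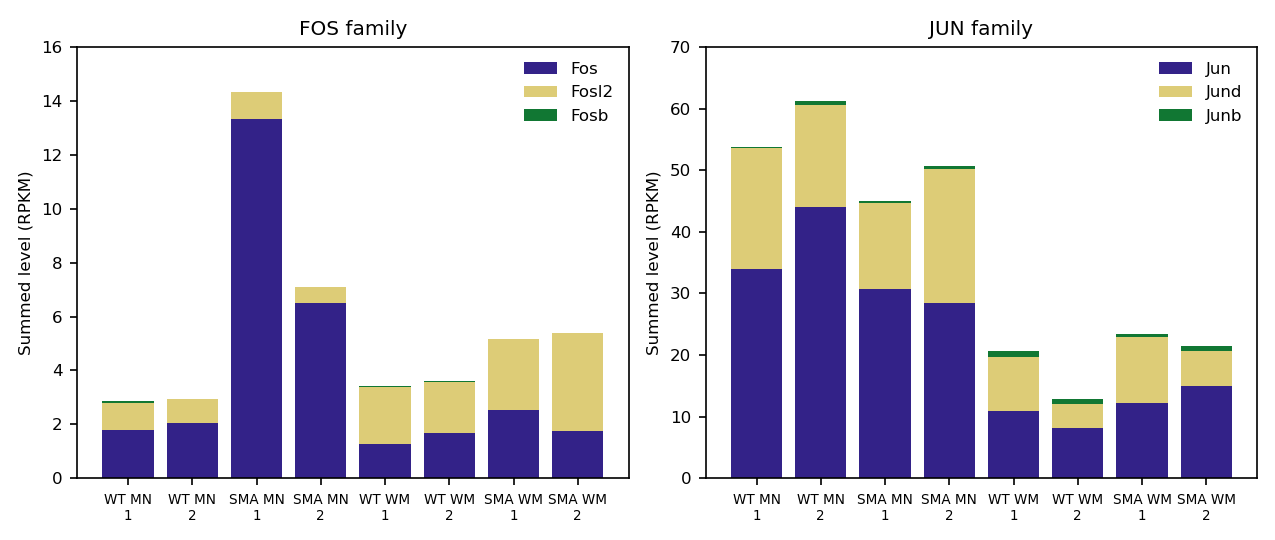
Stacked bars give the summed level in RPKM of the FOS family (left; Fos, Fosl2, Fosb) and of the JUN family (right; Jun, Jund, Junb) in each of the 8 libraries, with the replicate number under the group (MN, motor neurons; WM, white matter). The FOS family sum leaves out Fosl1, a FOS gene outside the set. The sum of the FOS genes shown reached 14.3 and 7.10 RPKM in SMA motor neurons, nearly all of it Fos. The JUN family sum was 45.0 to 61.2 RPKM in motor neurons against 12.8 to 23.4 RPKM in white matter.

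JUN proteins can pair with each other, while FOS proteins need a partner such as JUN, so both sums are given side by side. The FOS family sum leaves out Fosl1, whose levels are given above, so ratios with Fosl1 included would be lower than those given here. In WT motor neurons the JUN family sum was 18.8 and 20.7 times the FOS family sum. In SMA motor neurons this ratio was 3.14 and 7.13, and in the 4 white matter libraries it was 3.56 to 6.03. The ratio is taken within a library and does not depend on the scaling between libraries. These are ratios of RNA levels and say nothing of protein. The bars of summed levels show that the FOS sum was higher and the JUN sum lower in SMA than in WT motor neurons, with no overlap in either. After median-of-ratios scaling, which sets libraries to a common level by the median gene, the FOS sums stayed apart (2.72 and 3.05 in WT, 12.6 and 8.45 in SMA) and the JUN sums overlapped (51.3 and 63.2 in WT, 39.6 and 60.3 in SMA). The 2 WT motor neuron libraries had the highest ratios of all 8.

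Atf3, a stress-induced partner in AP-1-like dimers, was low in all groups. It was at 0.272 and 0.372 RPKM in WT motor neurons and at 0.0496 and 0.147 RPKM in SMA motor neurons, 49 and 57 reads against 8 and 24. In white matter it was at 0.285 and 0.549 RPKM in WT and at 0.837 and 0.0295 RPKM in SMA. Both SMA motor neuron libraries were below both WT ones, as they were for 15.5% of tested genes. The 2 SMA white matter replicates differed 28.3-fold and spanned the range of all 8 libraries. Given that gap between replicates, the white matter genotypes could not be set apart.

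Egr1, an activity-induced zinc finger transcription factor, was at 7.18 and 4.80 RPKM in WT and at 10.5 and 15.0 RPKM in SMA motor neurons. In white matter it was at 9.19 and 5.99 RPKM in WT and at 12.5 and 10.4 RPKM in SMA. In each region both SMA libraries were above both WT libraries on the deposited scale, as they were for 5.91% of all genes. After median-of-ratios scaling, described above, this was kept in motor neurons and not in white matter. The regions overlapped within each genotype. Its lowest level still rested on 1143 reads.

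Arc, whose product acts in the removal of glutamate receptors from synapses, differed more between replicates than between groups. It was at 3.36 and 2.20 RPKM in WT motor neurons and at 1.67 and 5.05 RPKM in SMA motor neurons. In white matter it was at 4.67 and 1.74 RPKM in WT and at 4.14 and 1.70 RPKM in SMA. All groups overlapped, and in each of the 4 groups the library with more Arc was also the one with more Jund and more Egr1. Ier2, a small early gene with a nuclear product, showed no group apart from the others: 1.62 and 1.44 RPKM in WT motor neurons, 1.45 and 1.24 in SMA motor neurons, 1.74 and 1.02 in WT white matter and 1.10 and 1.32 in SMA white matter.

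**Figure D2:**
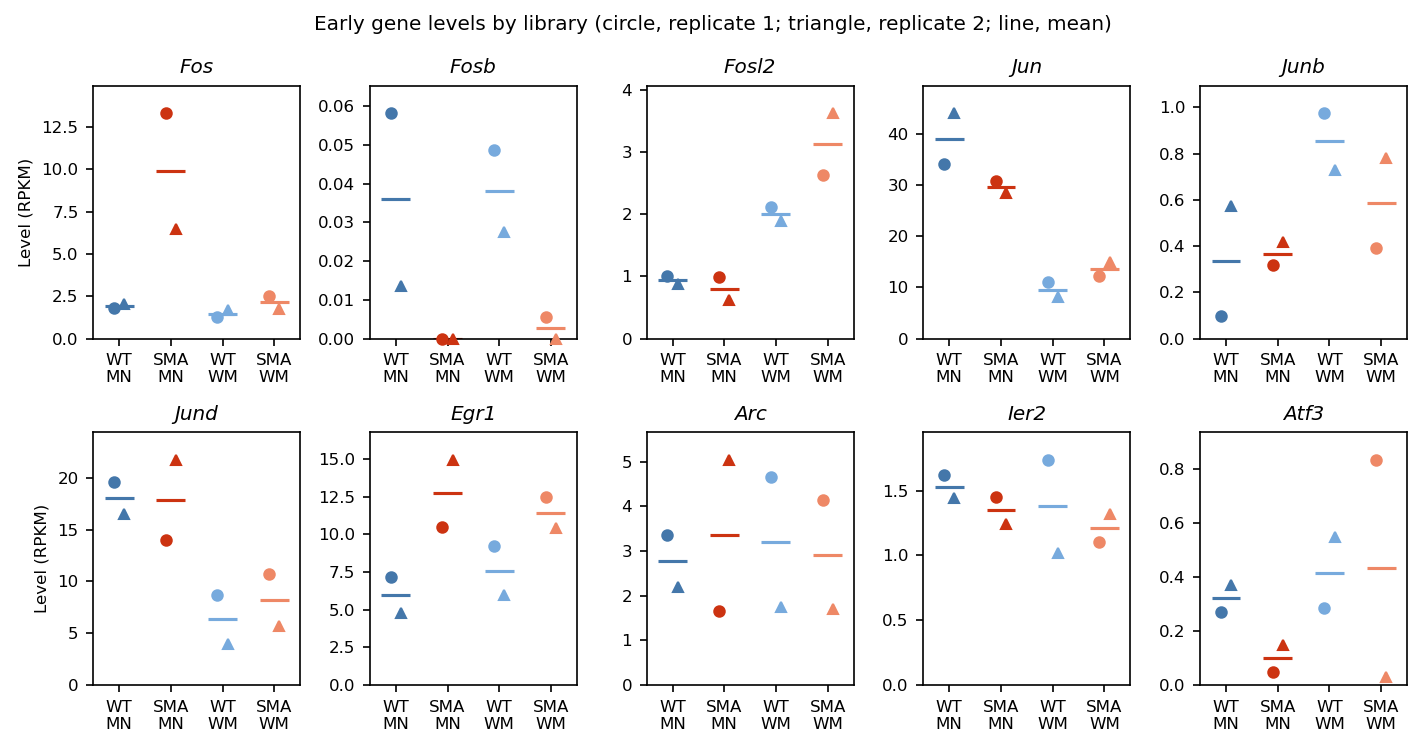
Each panel gives the level in RPKM of 1 of the 10 genes in the 8 libraries by group (MN, motor neurons; WM, white matter), with circles for replicate 1, triangles for replicate 2 and a line at the mean; every vertical axis starts at 0 and has its own scale. Fos stands out in SMA motor neurons at 13.3 and 6.49 RPKM, Jun and Jund are higher in both motor neuron groups than in white matter, and Arc and Atf3 show wide gaps between replicates.

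The comparison of SMA with WT motor neurons asks whether early genes differ in the diseased cell type. Fos averaged 9.91 ± 4.84 RPKM in SMA and 1.92 ± 0.194 RPKM in WT (SD, n = 2 libraries), a ratio of means of 5.16. Egr1 averaged 12.7 ± 3.18 and 5.99 ± 1.68 RPKM, a ratio of 2.12. Jun went the other way, at 29.6 ± 1.61 and 39.0 ± 7.10 RPKM. None of these passed the test: on the log2(RPKM + 1) scale, which understates the change of low genes, the difference was 1.83 ± 0.39 (SE) for Fos, 0.97 ± 0.34 for Egr1 and -0.38 ± 0.28 for Jun (limma with Benjamini-Hochberg adjustment over all genes tested, adjusted p = 0.556, 0.983 and 1). Of the 7 tested members 0 were called, as were 0 of all 13948 genes (0%), and 609 of all genes (4.37%) had an unadjusted p under 0.05 against 2 of the 7 members, Fos and Egr1. The log2 difference of Fos was exceeded or matched by 20 of the 13948 genes, itself included (0.143%), and its unadjusted p by 23 (0.165%). Fos and Egr1 were the 2 tested members higher in both SMA than in both WT libraries, where 12.7% of all genes were. Jun was the 1 tested member lower without overlap, where 15.5% of all genes were. Of the members without a test, Fosb and Atf3 were lower without overlap as well. The median log2 difference over the 7 members was -0.044, beside -0.050 over all genes.

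The Fos difference kept its sign in all 15 alternative analyses (1.36 to 2.30, adjusted p = 0.119 to 1). It was 1.36 without SMA replicate 1 and 2.30 without SMA replicate 2, so its size rested on which of the 2 SMA libraries was used. After median-of-ratios scaling, Fos and Egr1 were again higher without overlap, Jun overlapped between the genotypes, and Fosl2 and Ier2 lay lower without overlap, where 13.8% of all genes were higher and 15.3% lower in this way. Markers of some other cell types were higher as well, and those of others were not. Of 7 microglia markers (Aif1, Csf1r, Cx3cr1, Tyrobp, C1qa, C1qb, C1qc), 6 were higher without overlap in SMA motor neurons. Their summed level was 25.9 to 30.5 RPKM in WT and 76.4 to 88.3 RPKM in SMA motor neurons, none being at 0 in either group. In white matter that sum was 231 to 369 RPKM, Fos was at 1.27 to 2.52 RPKM and Egr1 at 5.99 to 12.5 RPKM. Of 6 myelinating oligodendrocyte markers 4 were higher without overlap (summed level 39.5 to 62.6 RPKM in WT and 77.6 to 111 in SMA motor neurons), and of 4 interneuron markers 2 were (33.9 to 55.1 and 58.0 to 65.6). Of 4 astrocyte markers 2 were, Gfap and Aldh1l1 (summed level 62.5 to 69.1 RPKM in WT and 67.9 to 117 in SMA motor neurons). Of 6 motor neuron markers 2 were lower (466 to 493 and 408 to 421). Of 5 endothelium markers 2 were higher and 1 was lower without overlap, and of 3 fibroblast markers 1 was higher. Of 2 oligodendrocyte precursor, 3 pericyte and 3 red blood cell markers, 0 were apart in either direction. The part of these shifts in the Fos and Egr1 values was not tested.

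**Figure D3:**
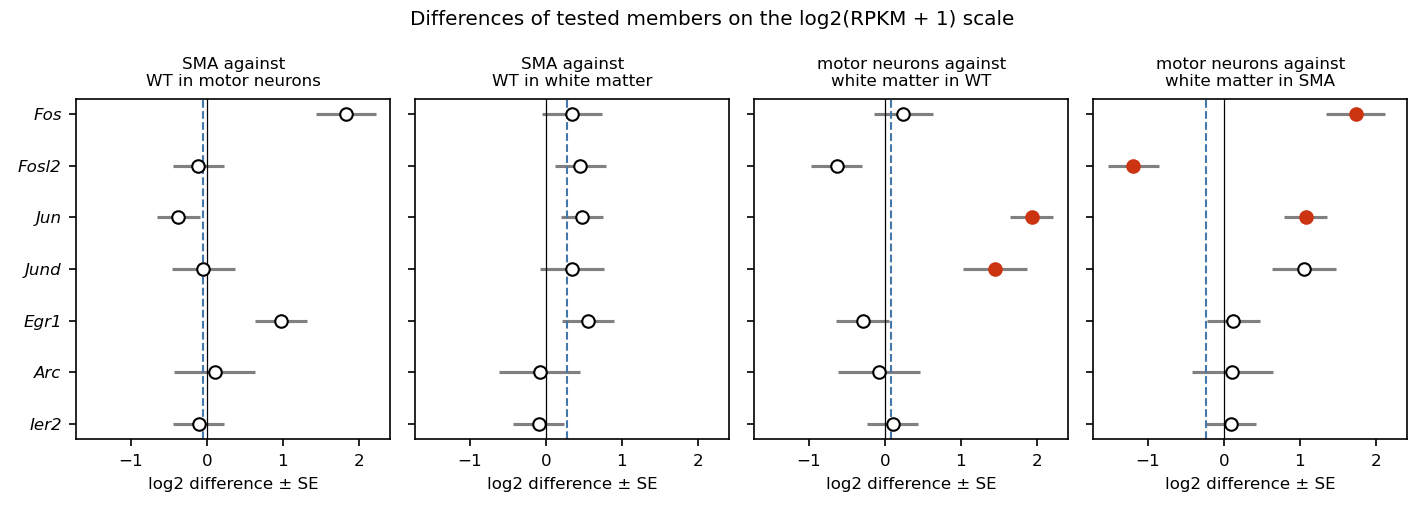
Points give the log2 difference on the log2(RPKM + 1) scale with its SE for the 7 tested members in 4 comparisons, filled red where the limma adjusted p was under 0.05 and open otherwise; the dashed line is the median over all 13948 genes. No point is filled for SMA against WT, where Fos reached 1.83 in motor neurons; Jun and Jund are filled between the WT regions, and Fos, Jun and, on the lower side, Fosl2 between the SMA regions.

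The same comparison in white matter showed smaller ratios. Egr1 averaged 11.4 ± 1.47 RPKM in SMA and 7.59 ± 2.26 RPKM in WT, Jun 13.6 ± 1.94 and 9.53 ± 2.03, Fosl2 3.13 ± 0.706 and 2.01 ± 0.149, and Fos 2.14 ± 0.532 and 1.47 ± 0.283. These 4 were higher in both SMA libraries than in both WT libraries on the deposited scale, where 39.7% of all genes were. None passed: the log2 differences were 0.55 ± 0.34 for Egr1, 0.48 ± 0.28 for Jun, 0.45 ± 0.33 for Fosl2 and 0.34 ± 0.39 for Fos (limma adjusted p = 0.757, 0.752, 0.776 and 0.862), with 0 members and 0 of all genes (0%) called. At an unadjusted p under 0.05 there were 880 genes (6.31%) and 0 members. Of the members without a test Fosb was lower without overlap, where 4.17% of tested genes were. The median log2 difference over all genes was 0.27 in this comparison, with 79.98% of genes above 0, and it was 0.34 over the 7 members. After median-of-ratios scaling the median over all genes was 0.0015 and all 4 members overlapped between the genotypes, with log2 differences of 0.25 for Egr1, 0.17 for Jun, 0.21 for Fosl2 and 0.13 for Fos. The separation of SMA from WT white matter in these 4 genes therefore depended on the scaling. Of the members without a test, Fosb and Junb lay lower without overlap after scaling, where 13.9% of tested genes did. Egr1 and Fos were higher without overlap in both regions on the deposited scale, where 5.91% of all genes were, and after scaling they were so in motor neurons and not in white matter.

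Over both regions, 4 SMA against 4 WT libraries, the log2 difference was 1.08 ± 0.28 for Fos and 0.76 ± 0.24 for Egr1 (limma adjusted p = 0.761 for each), and 0 of the 7 members passed. No gene of all 13948 passed either (0%), while 836 genes (5.99%) had an unadjusted p under 0.05, Fos and Egr1 among them. The genotype difference of Fos was larger in motor neurons than in white matter by 1.49 ± 0.56, and that of Jun smaller, by a difference of -0.85 ± 0.40. Neither passed the interaction test (limma adjusted p = 0.883 for each), and 0 of all genes did (0%), with 693 genes (4.97%) and 1 member, Fos, at an unadjusted p under 0.05. On this evidence the genotype effect on Fos was not shown to differ between the regions. Jun was lower in SMA than in WT motor neurons and higher in SMA than in WT white matter, both without overlap, as were 5.68% of all genes on the deposited scale. Neither separation of Jun was kept after median-of-ratios scaling.

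The comparison of regions in WT sets early gene RNA levels of the captured motor neurons beside those of the captured white matter at this age. Jun averaged 39.0 RPKM in motor neurons and 9.53 RPKM in white matter, 4.10 times as high, and Jund 18.1 ± 2.20 and 6.37 ± 3.35 RPKM, 2.84 times as high. Both were higher in motor neurons, by log2 differences of 1.93 ± 0.28 and 1.45 ± 0.42 (limma adjusted p = 9.4e-04 and 0.0287). These were 2 of 7 members, where 28.4% of all genes were called (18.6% higher and 9.85% lower). Fos, Jun and Jund lay higher without overlap, as 39% of all genes did, and Fosl2 lower, as 31% did; Fos overlapped after median-of-ratios scaling. Jun passed in all 15 alternatives (limma adjusted p = 3.0e-04 to 0.0178). Jund did not pass without WT motor neuron replicate 1 (limma adjusted p = 0.154), without WT motor neuron replicate 2 (0.0999), without WT white matter replicate 2 (0.215) or with no filter on low genes (0.0714). Fosl2 was 0.944 ± 0.0933 RPKM in motor neurons and 2.01 RPKM in white matter, a log2 difference of -0.63 ± 0.33 that did not pass (limma adjusted p = 0.192). Fos (0.25 ± 0.39, limma adjusted p = 0.688) and Egr1 (-0.29 ± 0.34, 0.569) did not pass between the WT regions.

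Between the SMA regions, Fos and Jun were called higher in motor neurons and Fosl2 was called lower. Fos averaged 9.91 RPKM in motor neurons and 2.14 RPKM in white matter, a log2 difference of 1.73 ± 0.39 (limma adjusted p = 0.00972). Jun averaged 29.6 and 13.6 RPKM, a difference of 1.08 ± 0.28 (limma adjusted p = 0.0177). Fosl2 averaged 0.804 ± 0.268 and 3.13 RPKM, a difference of -1.19 ± 0.33 (limma adjusted p = 0.0242). These were 3 of 7 members, where 30.8% of all genes were called (13.6% higher and 17.2% lower). Without overlap, Fos, Jun and Jund lay higher, as 26.7% of all genes did, and Fosl2 lower, as 37.2% did. Jund, at 17.9 ± 5.53 and 8.22 ± 3.59 RPKM, did not pass (1.06 ± 0.42, limma adjusted p = 0.0820), except without SMA motor neuron replicate 1 (0.0386). The 3 calls rested on few libraries. Without SMA white matter replicate 2 all 3 were lost (limma adjusted p = 0.0725 for Fos, 0.0517 for Jun and 0.125 for Fosl2), as they were in a fit of the 4 SMA libraries alone (0.0523, 0.0620 and 0.0863). Jun was also lost without SMA white matter replicate 1 (0.106), and Fosl2 without SMA white matter replicate 1 (0.0580) or SMA motor neuron replicate 2 (0.0697). Fos was thus called between the regions in SMA and not in WT, while the difference between these contrasts is the interaction given above, which did not pass.

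Other early genes were taken from a list of 46, of which 41 were tested. In SMA against WT motor neurons 0 of 41 passed, 12 were higher and 6 lower without overlap (12.7 and 15.5% of all genes were), and the median log2 difference was -0.0064, beside -0.050 over all genes. The smallest p belonged to Plk2, a polo-like kinase induced by activity and by p53, and to Dusp4, a phosphatase that switches off MAP kinases. Plk2 was at 6.08 and 6.38 RPKM in WT and at 20.4 and 12.3 RPKM in SMA motor neurons (log2 difference 1.22 ± 0.35, limma adjusted p = 0.752). Dusp4 was at 5.27 and 7.03 RPKM in WT and at 11.3 and 15.5 RPKM in SMA motor neurons (1.01 ± 0.33, limma adjusted p = 0.888). Both stood near Egr1 in the plot of both regions, and neither passed. Among genes named after their values were seen, the orphan nuclear receptor gene Nr4a1 was at 1.28 and 1.60 RPKM in WT and 2.35 and 3.54 in SMA motor neurons, and the antiproliferative gene Btg2 at 2.02 and 3.65 and at 6.18 and 5.92. Also among these, Npas4, an early gene of neurons induced by calcium entry, was at 0.240 RPKM or less in all motor neuron libraries. The 6 genes lower without overlap, named here after their values were seen, were Dusp1, Dusp6, Ctgf, Maff, Plk3 and Myc.

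**Figure D4:**
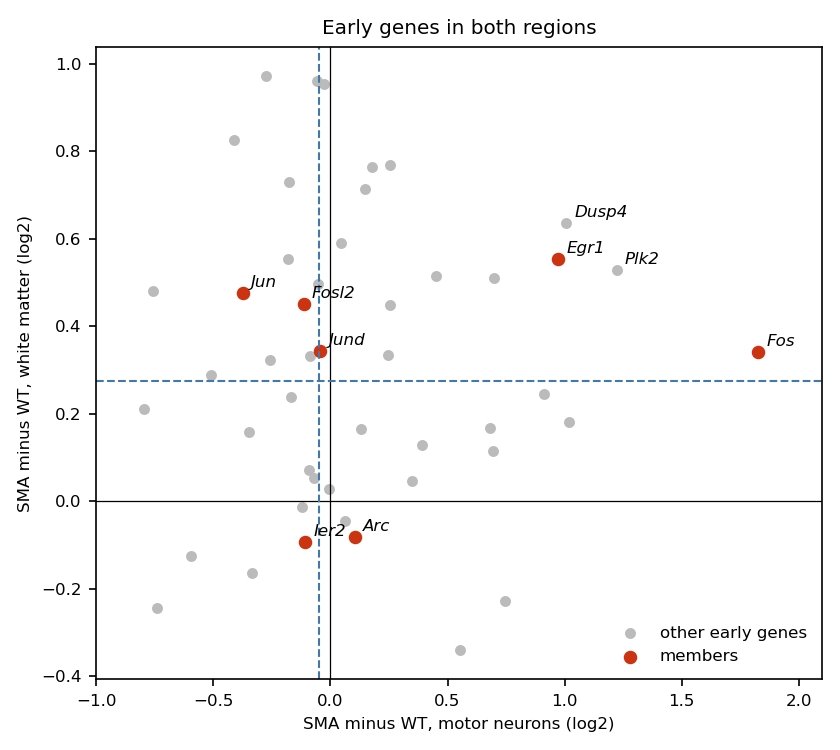
Each point is a tested early gene, with the SMA minus WT log2 difference in motor neurons on the horizontal axis and in white matter on the vertical axis, both on the log2(RPKM + 1) scale; the 7 members are red, the 41 other early genes grey, and dashed lines mark the medians over all genes (-0.050 and 0.27). Fos lies farthest right at 1.83, Egr1 lies near Plk2 and Dusp4, and most other points lie within 1 of 0 on both axes.

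In white matter 0 of the 41 other early genes passed either, with a median log2 difference of 0.29 beside 0.27 over all genes. The smallest p belonged to the clock gene Per1 (4.26 ± 0.479 RPKM in WT and 9.24 ± 0.923 in SMA, limma adjusted p = 0.727) and the transcription factor gene Klf4 (0.479 ± 0.279 and 1.87 ± 0.630 RPKM, limma adjusted p = 0.741). Between the WT regions, 7 of 41 were called higher in motor neurons and 4 lower, near the 18.6 and 9.85% of all genes. The higher ones with the smallest p were the CREB-induced kinase gene Sik1 (11.3 ± 1.10 RPKM in motor neurons against 2.14 ± 0.894 in white matter), Plk3 (39.1 ± 1.19 and 9.93 ± 5.71), Dusp4 (6.15 ± 1.24 and 1.80 ± 0.231) and Ier3 (10.2 ± 0.112 and 2.16 ± 0.113), with limma adjusted p of 0.0169 or less. The lower ones were Id1, an inhibitor of differentiation factors (3.22 ± 0.0947 and 33.8 ± 3.20 RPKM), the kinase gene Sgk1 (5.76 ± 0.404 and 47.5 ± 4.65), Zfp36, whose product destabilizes early gene mRNA (0.404 ± 0.116 and 4.48 ± 0.163), and Btg1. Between the SMA regions 3 of 41 were called higher (Dusp4, Plk3 and Sik1) and 5 lower in motor neurons, where 13.6 and 17.2% of all genes were, the lower ones led by Id1, Sgk1, Nab2, which encodes a repressor that binds EGR1, and Zfp36.

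Among 31 upstream kinases and factors, all tested, 0 passed in SMA against WT motor neurons (median log2 difference -0.0025) and 0 in white matter (0.36). Srf, the factor that binds the CArG box, was at 4.50 and 2.55 RPKM in WT and at 7.86 and 5.54 RPKM in SMA motor neurons (limma adjusted p = 1). Map2k4, a kinase that activates JNK, was at 71.5 and 79.9 RPKM in WT and at 63.5 and 28.5 RPKM in SMA motor neurons (limma adjusted p = 1). Between the WT regions 11 of the 31 were called higher and 3 lower in motor neurons, beside 18.6 and 9.85% of all genes. On the higher side were the JNK2 gene Mapk9 (64.8 ± 2.58 RPKM in motor neurons against 11.3 ± 0.0426 in white matter), the calcium-dependent kinase Camk2b (83.6 ± 5.84 and 8.62 ± 5.99), the JNK scaffold Mapk8ip2 and the SRF coactivator Mkl1 (limma adjusted p of 0.00178 or less). On the lower side were Mef2c (1.23 ± 0.336 and 7.20 ± 2.20 RPKM) and the SRF partners Elk3 and Elk4. Between the SMA regions 8 were called higher and 3 lower, beside 13.6 and 17.2% of all genes, the 3 lower ones being again Mef2c, Elk3 and Elk4.

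Of 22 bZIP partners and ATF genes, whose proteins share the leucine zipper of AP-1, 20 were tested and 0 passed in either genotype comparison. Their median log2 difference was 0.080 in motor neurons, beside -0.050 over all genes, and 0.38 in white matter, beside 0.27. The smallest p in motor neurons belonged to the small MAF gene Mafg (2.74 and 3.45 RPKM in WT, 11.4 and 5.94 in SMA) and to Batf3, whose 2 SMA libraries were at 1.99 and 13.5 RPKM. Between the WT regions 2 of the 20 were called higher in motor neurons, Nfe2l1 among them, and 2 lower, beside 18.6 and 9.85% of all genes. The lower ones were Nfe2l2, the oxidative stress factor NRF2, and Atf7. Nfe2l2 was at 3.68 ± 2.84 RPKM in WT motor neurons and 13.7 ± 0.414 RPKM in WT white matter (limma adjusted p = 0.0143). Between the SMA regions 1 was called higher, Nfe2l1, and 2 lower, Nfe2l2 and Atf7, beside 13.6 and 17.2% of all genes.

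Genes known to respond to axon injury together with Jun and Atf3 formed a list of 12, of which 11 were tested. In SMA against WT motor neurons 0 passed. The neuropeptide gene Gal had the smallest p, at 2.70 and 2.62 RPKM in WT and 9.62 and 12.8 RPKM in SMA motor neurons (log2 difference 1.72 ± 0.41, limma adjusted p = 0.621). In white matter Gal went the other way, at 2.29 and 0.621 RPKM in WT and 0.0148 and 0.264 RPKM in SMA, and its difference between regions of 2.75 ± 0.58 did not pass (limma adjusted p = 0.883). Sprr1a, an injury gene usually silent in intact neurons and named here after its values were seen, was at 0 and 0.588 RPKM in WT and at 1.94 and 0 RPKM in SMA motor neurons.

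Across the 8 libraries, the 5 tested genes outside the set whose log2(RPKM + 1) followed Fos most closely were Slc26a9, Plk2, Clic1, Metap1d and Neurod6, with Pearson's r of 0.965, 0.956, 0.940, 0.935 and 0.932. These are descriptions over 8 libraries that share 4 groups, and the 2 SMA motor neuron libraries are the high points of each. Clic1, an intracellular chloride channel gene, was at 28.7 and 29.2 RPKM in WT and at 63.8 and 47.7 RPKM in SMA motor neurons, and at 18.1 to 32.3 RPKM in white matter. For Atf3 the 5 closest were Klhl25, Tyw1, Tshb, Pskh1 and Lipt2, with r of 0.945, 0.940, 0.903, 0.899 and 0.879. Klhl25 and Tyw1, like Atf3, were highest in SMA white matter replicate 1, at 4.87 and 3.78 RPKM.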

How the data were processed

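Total RNA from 8 laser captures was amplified with the Ovation RNA-seq System V2 and sequenced, per the labels' protocols. The authors deposited 1 table of RPKM values per library. TopHat, bedtools and DESeq and the build mm9 are named in the submitters' processing notes. No source used here gives their versions, the annotation, the strand setting or how reads matching several places were handled, so reads shared by near-identical or overlapping genes are uncertain.

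Log2(RPKM + 1) of the 13948 genes with at least 1 RPKM in at least 2 libraries was fitted with limma 3.58.1 in R 4.3.3: 4 group means over all 8 libraries, eBayes with trend, two-sided tests, Benjamini-Hochberg adjustment over all genes and a threshold of 0.05, in 6 contrasts. No count test is the main result. Reads were recovered from the RPKM steps, as the smallest whole numbers within 0.02 of a read, for 99.4% of 17431 genes above 0 in at least 3 libraries. They may be low by a whole factor. For Jun the model length did not come out as a whole number of bases, so its reads are not printed. Both methods were tested on simulated data. Python 3.11.15 with pandas 2.3.3, numpy 2.4.6 and matplotlib 3.10.9 read and drew the data.

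All members were named. From 4 further lists, up to 4 genes per direction that passed, or the 2 with the smallest p where none did, were named, with the 5 genes most like Fos and Atf3. A result that this rule names is not reported here. Members and lists were chosen with earlier results of these data known. Alternatives were another pseudocount, 2 filters, median-of-ratios scaling, a fit of compared groups, a replicate block, leaving out each library and voom on recovered reads, the last chosen after seeing the data. Groups do not overlap when both libraries of one lie above both of the other.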

Additional observations from a re-analysis of the deposited data

How the results depend on the processing

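The 20 member differences with a printed test were chosen after the main fit. Differences near 0, whose sign changes most easily, were given by level only. Each of the 20 kept its sign under every alternative run, which the choice made likely beforehand. No member was called between the genotypes or in the interaction under any alternative. The members called between the WT regions were 2, or 1 with no filter and 1 to 2 when 1 library was left out. Between the SMA regions they were 3, or 2 of the 4 members left with a minimum of 5 RPKM, 0 in a fit of the compared groups alone and 0 to 4 when 1 library was left out. Counts over all genes moved as follows. For SMA against WT, 0 genes became 1 with no filter in motor neurons. In white matter they became 1 in a fit of the compared groups alone and 1 by voom on recovered reads. Over both regions they became 2 with a pseudocount of 0.1 RPKM, 1 with a minimum of 5 RPKM and 1 by voom. When 1 library was left out, the counts were 0 to 123 in motor neurons, 0 to 1 in white matter, 0 to 8 over both regions and 0 to 17 for the interaction. The 123 and the 17 came without SMA motor neuron replicate 1. Between the WT regions 3967 genes became 2015 to 5333 when 1 library was left out, and between the SMA regions 4295 became 2272 to 5539 in this way and 2415 in a fit of the compared groups alone. The cause was not tested. The replicate block was also a block for sex. With it, 3848 genes were called between the WT regions and 4138 between the SMA regions, with 2 and 3 members, and 0 genes between the genotypes. Replicate differences correlated between groups by -0.34 to 0.080 over genes, so the replicate numbers were not taken to pair the libraries. Depth limits Fosb and Atf3, which rested on 0 to 10 and 6 to 160 reads.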
